A study of Mus musculus with 6 samples.

Results

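The genes described here are 9 genes of the junctions that join the cells of the seminiferous epithelium, taken by gene name from the 26743 genes of the deposited count table. Cldn3, Cldn11 and Ocln encode proteins of the tight junction strands between Sertoli cells, Cldn5 the claudin best known from endothelium, Tjp1 the scaffold protein ZO-1, Gja1 the gap junction protein connexin 43, and Jam3, Pvrl2 and Pvrl3 the adhesion proteins JAM-C, nectin-2 and nectin-3 of the contact between Sertoli cells and spermatids. Whole testes of 3 wild-type (WT) and 3 Trf2-/- mice, all 21 days old, were profiled by RNA-seq. Trf2 (gene symbol Tbpl1) is a TBP-like protein of the germ line that associates with TFIIA and its testis form ALF. The mutation is constitutive and not limited to a cell type, and 21 days was chosen in the study as the time when round spermatids first appear, ahead of their loss in the mutant. No other allele or treatment is named for either genotype.

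Each WT mouse had between 21582123 and 29859347 counts on genes, and each Trf2-/- mouse between 15187062 and 24530489. Levels are given as CPM, counts scaled to a common library size with factors from the trimmed mean of M-values (TMM), and as RPKM, which are CPM divided by the deposited gene length, where genes are set against each other. Tbpl1 itself stood at 308.04, 283.1 and 293.6 CPM in the WT testes and at 62.9, 64.3 and 55.8 CPM in the mutant ones. It fell from 294.9 ± 12.5 CPM in WT to 61.0 ± 4.60 CPM in Trf2-/- testis (SD, n = 3; log2 fold change -2.27, SE 0.06, adjusted p = 1.18e-06), and the 6 libraries thus matched their labels. Of the 13 Sertoli cell markers with a row, every one was measured, and their most abundant, Clu, stood at 1094.5 CPM in WT. The 6 elongating spermatid markers summed to 3.31 to 4.21 CPM in WT and 0.316 to 0.600 CPM in Trf2-/- mice, most of it from Odf1 at 2.37 CPM and Gapdhs at 1.07 CPM in WT. Tnp1, for a transition protein, had 9 counts and Prm2, for a protamine, had 2 counts over the 6 mice.

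Sertoli cells span the wall of the seminiferous tubule, and the tight junctions between neighbouring Sertoli cells form the blood-testis barrier, behind which meiotic and haploid germ cells develop. Claudins and occludin form the strands of such a junction, ZO proteins tie the strands to actin, and connexin channels beside them pass small molecules between cells. Spermatids are held to the Sertoli cell by a related actin-rich junction, the apical ectoplasmic specialization, where nectin-3 on the spermatid binds nectin-2 on the Sertoli cell and JAM-C takes part in the polarity of the spermatid.

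All 9 genes passed the filter on low counts and entered the test. Pvrl3 fell in Trf2-/- testis, to 0.631 of its WT level, while Gja1, Cldn11 and Jam3 rose by 1.13- to 1.18-fold and Ocln, Pvrl2, Cldn5, Tjp1 and Cldn3 did not pass the test. The threshold for a call was 0.05 on the p of the quasi-likelihood test of edgeR, after Benjamini-Hochberg adjustment over the 16924 genes tested. The 4 of 9 genes called stand beside 31.4% of all tested genes, the 3 called higher beside 11.2% and the 1 called lower beside 20.2%. No gene of the 9 was called with a change of at least 2-fold, which 4.9% of all tested genes had (4.3% lower and 0.609% higher). In the same 4 genes the CPM of the genotypes did not overlap, with every mutant mouse higher for 3 and lower for 1, and over all tested genes this held for 49.2% (22.3% higher and 26.8% lower). The median log2 fold change of the 9 genes was 0.08, and that of all tested genes was 0.04. In RNA of whole testis, fewer cells of a type and less RNA per cell cannot be told apart, and this holds for each value that follows.

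**Figure D1:**
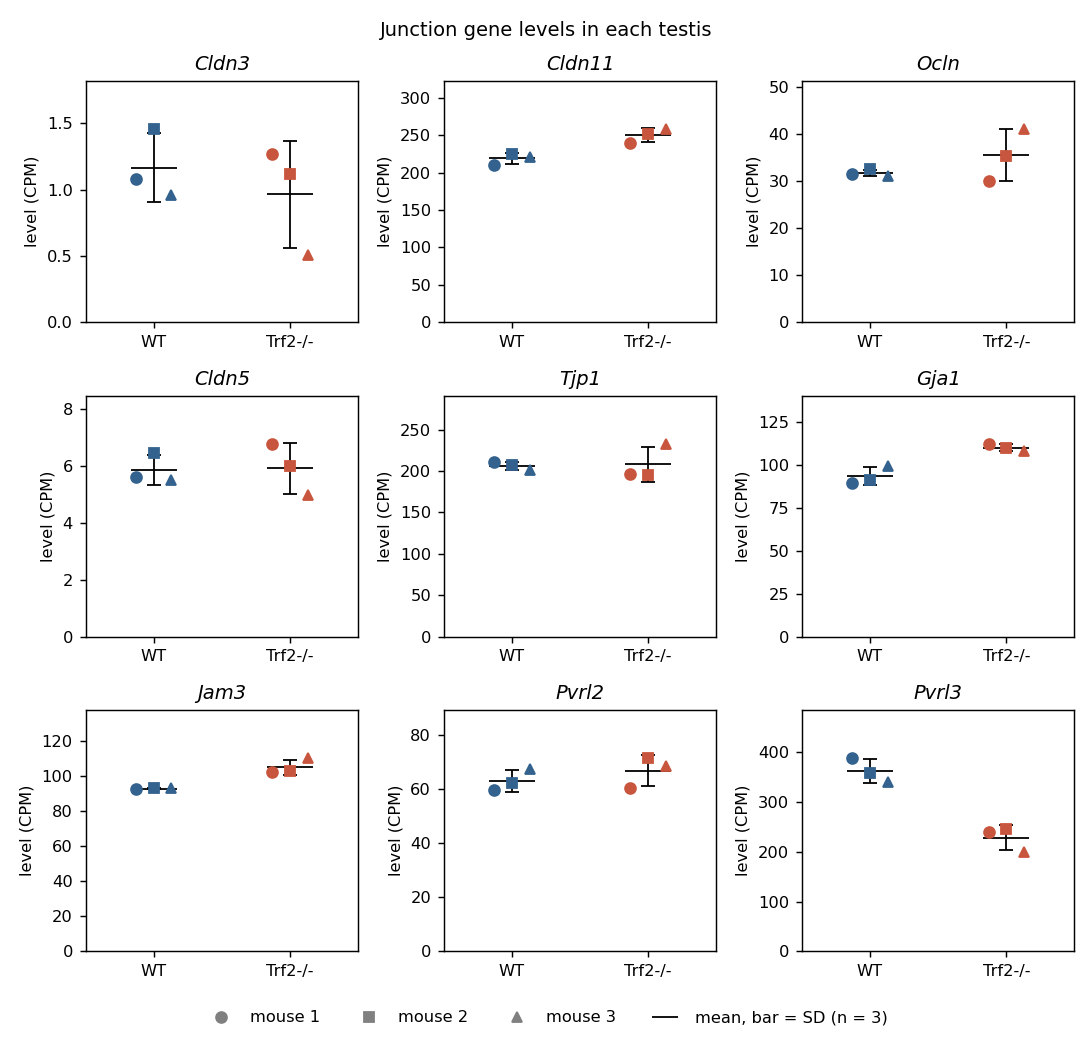
Level of each of the 9 junction genes in CPM (vertical axes from 0, one scale per gene) in the testes of 3 WT (blue) and 3 Trf2-/- mice (red). Symbols give the mouse number within the genotype, horizontal lines the mean and bars the SD. With this TMM scaling the genotypes do not overlap for Cldn11, Gja1, Jam3 and Pvrl3, and they overlap for the other 5 genes; Pvrl3 lies at 340.1 to 387.9 CPM in WT and 199.9 to 246.7 CPM in Trf2-/- testis.

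Of the 3 adhesion genes, Pvrl3 was the most abundant in CPM and the one that fell. Per length Jam3 was above it in WT, at 36.7 against 29.7 RPKM. Pvrl3 lies on chromosome 16 at 46387819 to 46498638 on the minus strand of NCBIM37 and has 8 protein-coding transcripts in the annotation. Its product nectin-3 is the nectin of the spermatid side of the contact. The WT mice had 387.9, 358.7 and 340.1 CPM of it, against 239.0, 246.7 and 199.9 CPM in the mutants. Every mutant mouse was below every WT mouse, and mutant mouse 3 was the lowest of the 6. The mean fell from 362.2 ± 24.1 to 228.5 ± 25.1 CPM (SD, n = 3 each), a log2 fold change of -0.66 with SE 0.08 and a 95% confidence interval of -0.85 to -0.48 (adjusted p = 0.000765). By size of decrease it was at rank 1302 of the 3423 genes called lower. The call was kept with every other scaling, filter and test tried and without any 1 of the 6 mice, with values from -0.93 to -0.57.

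Markers of spermatids were lower in Trf2-/- testis, as Pvrl3 was. All 9 tested round spermatid markers had a negative log2 fold change, 7 of them were called lower, their median was -1.89, and their summed level was 19.9 to 22.3 CPM in WT and 8.34 to 11.2 CPM in Trf2-/- mice. Among them Tssk1, a kinase gene of spermatids, fell by 1.41 on the log2 scale (adjusted p = 0.000425), and Spaca1, an acrosome gene and over both genotypes the highest of the list in CPM, went from 7.13 to 6.09 CPM without passing the test (adjusted p = 0.217). The median of -1.89 is the value of Catsper3, which had 54 counts over the 6 mice. Acrv1, Spaca7 and Catsper4 averaged 0.0561, 0.0286 and 0.0550 CPM in Trf2-/- mice. A level of 3 counts corresponds to 0.105 to 0.190 CPM in these libraries, so the size of such falls is poorly measured. Both tested markers of elongating spermatids, Odf1 and Gapdhs, were called lower. Of the 11 spermatocyte markers 3 were called lower and 3 higher, with a median log2 fold change of -0.0024. Their summed level was 6283 to 6554 CPM in WT and 5132 to 5657 CPM in Trf2-/- mice. Ldhc alone went from 2279 to 1407 CPM, so the sum does not describe the list as a whole. The part of these shifts in the Pvrl3 result was not tested.

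The start of the Pvrl3 gene is shown because Pvrl3 alone of the 9 genes fell with the TMM scaling, and those of Cldn11 and Gja1 because these genes, with Jam3, rose with it, in a study of a factor related to the TATA-binding protein. The windows are from RefSeq (GRCm38.p6) and run from 250 bases before to 50 bases after the annotated start, 5′ to 3′ on the strand of the gene: chr16:46496918-46497217 (minus strand) for Pvrl3, listed there as Nectin3, chr3:31149670-31149969 (plus strand) for Cldn11 and chr10:56377050-56377349 (plus strand) for Gja1. Capitals mark matches to 4 motifs searched on both strands, the TATA box (TATAAA), the cAMP response element (TGACGTCA), the GC box (GGGCGG) and the CCAAT box (CCAAT).
Pvrl3: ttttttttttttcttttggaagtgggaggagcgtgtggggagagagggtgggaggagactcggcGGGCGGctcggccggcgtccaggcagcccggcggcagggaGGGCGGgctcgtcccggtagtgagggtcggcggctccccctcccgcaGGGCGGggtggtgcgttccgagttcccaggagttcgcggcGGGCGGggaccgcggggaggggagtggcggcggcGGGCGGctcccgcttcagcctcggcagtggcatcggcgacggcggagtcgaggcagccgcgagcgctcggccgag
Cldn11: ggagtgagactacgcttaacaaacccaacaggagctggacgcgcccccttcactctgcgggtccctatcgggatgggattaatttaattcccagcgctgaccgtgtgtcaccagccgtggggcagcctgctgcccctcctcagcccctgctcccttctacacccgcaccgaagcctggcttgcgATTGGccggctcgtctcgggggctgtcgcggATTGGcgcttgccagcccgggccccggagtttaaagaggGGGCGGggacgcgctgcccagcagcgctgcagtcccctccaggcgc
Gja1: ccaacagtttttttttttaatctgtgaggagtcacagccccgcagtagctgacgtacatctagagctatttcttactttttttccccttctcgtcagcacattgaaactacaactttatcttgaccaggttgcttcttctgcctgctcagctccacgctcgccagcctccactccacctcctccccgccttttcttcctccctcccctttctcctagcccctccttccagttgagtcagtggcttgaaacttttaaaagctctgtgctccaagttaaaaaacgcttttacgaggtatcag

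The Pvrl3 window held 5 GC boxes, beginning at -186, -146, -99, -59 and -25 from the annotated start, and none of the other motifs. With 73.67% G and C it was the richest in these bases among the 9 windows found for 8 of the genes, all but Jam3, where all 32851 windows of the table had a median of 52.67%. The Cldn11 window held 1 GC box at 4 bases past the start and 2 CCAAT boxes on the other strand, and the Gja1 window, at 47.67% G and C, held none of the 4 motifs. A GC box was present in 8 of the 9 windows, belonging to 7 of the 8 genes, with 2 overlapping windows from Ocln. It was present in 35.7% of all windows, which were not matched for G and C. No window of these genes held TATAAA, which 13.6% of all windows hold. The cAMP response element stood in 1 window, that of Pvrl2, at 39 bases past the start, and in 1.79% of all. A CCAAT box was found in the windows of 3 genes, Cldn11, Ocln and Cldn5, and in 37.4% of all windows. These matches describe letters in the window and carry no measurement of binding.

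The partner of nectin-3, nectin-2, is encoded by Pvrl2 on chromosome 7 at 20301993 to 20334922 (minus strand). Pvrl2 stood at 59.5, 62.0 and 67.4 CPM in WT and at 60.3, 71.2 and 68.5 CPM in Trf2-/- mice. The genotypes overlapped, and the log2 fold change was 0.08 with a 95% interval of -0.09 to 0.25 (adjusted p = 0.426). The exons of Pvrl2 share 135 bases with those of Gm20512, a transcript on the opposite strand that had 72, 68 and 51 counts in WT and 39, 46 and 19 counts in Trf2-/- mice, against 1084 to 1707 counts per mouse on Pvrl2. Whether strand was used in counting is not given in the sources used here, so reads in the shared bases may belong to either.

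Jam3, for JAM-C, is on chromosome 9 at 26904969 to 26963003 (minus strand). It had 92.6, 93.2 and 93.6 CPM in WT and 102.5, 103.0 and 110.3 CPM in Trf2-/- mice. The WT mice were close to each other and every mutant mouse was above them. The mean rose from 93.1 ± 0.507 to 105.3 ± 4.36 CPM with the TMM scaling (log2 fold change 0.18, SE 0.05, adjusted p = 0.0220), and the sign turned to -0.10 when libraries were scaled to the Sertoli cell markers. The call was lost without WT mouse 1, 2 or 3, at adjusted p of 0.0774, 0.0815 and 0.0619.

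Among the genes of the tight junction strand, Cldn11 rose and Ocln and Cldn3 did not pass the test. Cldn11, the claudin without which Sertoli cells form no tight junction strands in mice, is on chromosome 3 at 31048868 to 31063246 (plus strand). Its level was 210.9, 224.8 and 221.5 CPM in WT and 240.0, 252.4 and 258.2 CPM in Trf2-/- mice, and the genotypes were apart. The mean rose from 219.1 ± 7.25 to 250.2 ± 9.30 CPM with the TMM scaling (log2 fold change 0.19, SE 0.05, 95% interval 0.08 to 0.30, adjusted p = 0.0158), and the value turned to -0.08 with the scaling to Sertoli markers. Without WT mouse 1 the adjusted p was 0.0703 and without Trf2-/- mouse 2 it was 0.0529.

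Ocln, for occludin, lies on chromosome 13 at 101266462 to 101322673 (minus strand). It stood at 31.5, 32.4 and 31.0 CPM in WT and at 30.0, 35.3 and 41.0 CPM in Trf2-/- mice. One mutant mouse was below all WT mice and the other two were above them. The log2 fold change was 0.16 with a 95% interval of -0.08 to 0.39 (adjusted p = 0.268). Leaving out Trf2-/- mouse 1 moved it to 0.25 and past the threshold (adjusted p = 0.0462).

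Cldn3, a claudin of newly formed barrier junctions, is on chromosome 5 at 135462084 to 135463342 (plus strand). It was the lowest of the 9 genes, with 31, 38 and 20 counts in WT and 32, 26 and 8 counts in Trf2-/- mice. These correspond to 1.08, 1.46 and 0.960 CPM in WT and to 1.27, 1.11 and 0.506 CPM in Trf2-/- mice, and the genotypes overlapped. The log2 fold change of -0.22 had a 95% interval of -0.96 to 0.51 (adjusted p = 0.628), and no difference was detectable at these counts. Without Trf2-/- mouse 3 the value was 0.03. Its exons share 40 bases with Wbscr25 on the opposite strand, which had 6 to 17 counts per mouse.

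Markers of Sertoli cells were higher beside the genes that rose, and most of those of the other somatic cells listed were higher too. All 13 tested Sertoli cell markers had a positive log2 fold change, 5 were called higher, Amh and Clu among them, their median was 0.21, and their summed level was 1614 to 1728 CPM in WT and 1857 to 2081 CPM in Trf2-/- mice. The median was 0.59 for macrophage markers (5 of 9 called higher) and 0.19 for peritubular myoid cells (1 of 6). It was 0.17 each for Leydig cells (1 of 8) and endothelium (1 of 10), where 11.2% of all tested genes were called higher. Values were positive for 9 of 9 macrophage, 5 of 6 peritubular, 6 of 8 Leydig and 10 of 10 endothelial markers, and 0 were called lower. The Leydig cell sums overlapped, at 306 to 484 CPM in WT and 313 to 467 CPM in Trf2-/- mice. The macrophage sums were uneven in Trf2-/- mice, at 209 to 411 CPM, against 183 to 207 CPM in WT. The part of the marker shifts in the increases was not tested. Clu had a log2 fold change of 0.22, against 0.24 for Gja1, 0.19 for Cldn11 and 0.18 for Jam3. With libraries scaled to the Sertoli cell markers in place of TMM, the median log2 fold change over all tested genes moved from 0.04 to -0.23. A change of scaling moves all genes nearly alike, so the distance from that median had to stay. It was 0.20 for Gja1, 0.15 for Cldn11 and 0.14 for Jam3 in both. The distances and the calls lost with this scaling are no separate test of the increases. The Sertoli cell markers themselves had a median of -0.06 in that fit, so signs turned to values near it show no fall relative to them. In the same fit 0.845% of all tested genes were called higher and 44.2% lower. None of the 9 genes was called higher in it, and 2 were called lower, Pvrl3 (-0.93) and Tjp1 (-0.26, adjusted p = 0.00827).

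**Figure D2:**
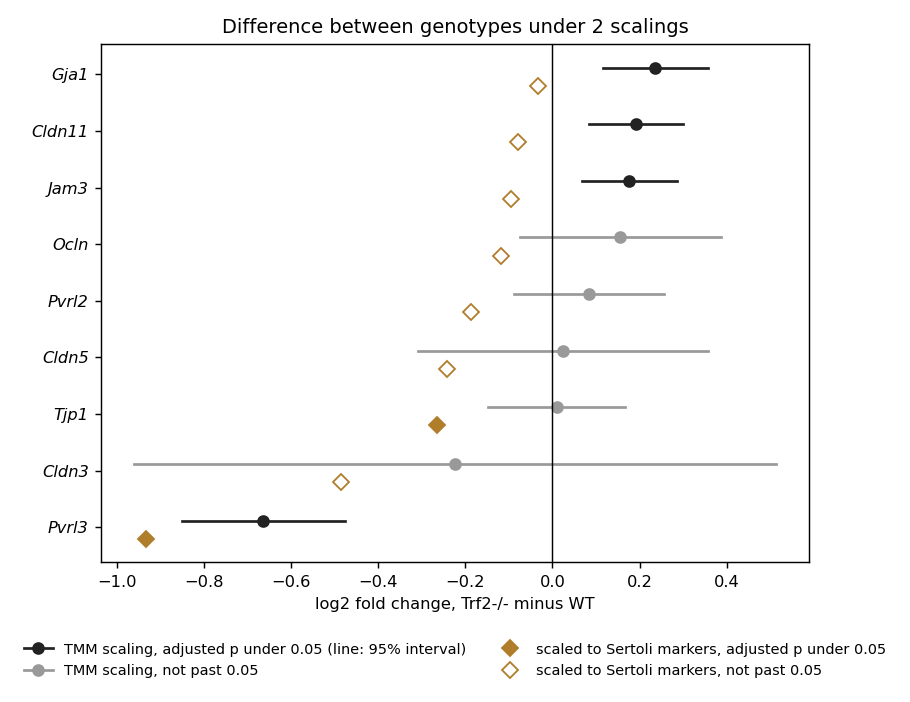
Log2 fold change of each junction gene, Trf2-/- minus WT (horizontal axis). Circles with 95% confidence intervals give the TMM scaling (black where the adjusted p was under 0.05, grey where not) and diamonds the scaling to Sertoli cell markers (filled where the adjusted p was under 0.05, open where not). Pvrl3 lies left of 0 in both, at -0.66 and -0.93, while Gja1, Cldn11 and Jam3 lie right of 0 with TMM and at -0.03, -0.08 and -0.10 with the Sertoli scaling. The Sertoli cell markers themselves had a median of -0.06 with the latter.

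Gja1, for connexin 43, the main connexin of Sertoli cells, is on chromosome 10 at 56097106 to 56110225 (plus strand). It had 89.3, 91.2 and 99.5 CPM in WT and 112.0, 109.6 and 107.9 CPM in Trf2-/- mice. All mutant mice were above all WT mice, and WT mouse 3 was nearest to them. The mean rose from 93.3 ± 5.39 to 109.8 ± 2.09 CPM with the TMM scaling (log2 fold change 0.24, SE 0.05, 95% interval 0.12 to 0.36, adjusted p = 0.0102), with a value of -0.03 under the Sertoli marker scaling. Leaving out WT mouse 1, WT mouse 2 or Trf2-/- mouse 1 gave adjusted p of 0.0502, 0.0546 and 0.0546.

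Tjp1 encodes ZO-1, a scaffold of tight and adherens junctions in many cell types, and lies on chromosome 7 at 72441051 to 72516125 (minus strand). It had 210.5, 207.2 and 201.4 CPM in WT and 196.2, 195.1 and 232.7 CPM in Trf2-/- mice. A pair of mutant mice were below all WT mice and the third was above them. The log2 fold change was 0.01 with a 95% interval of -0.15 to 0.17 (adjusted p = 0.926), and the sign turned with the Sertoli marker scaling, as given above.

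Cldn5, the claudin that seals the junctions of endothelium, is on chromosome 16 at 18776940 to 18778353 (plus strand). Its level was 5.61, 6.47 and 5.52 CPM in WT and 6.78, 6.003 and 4.99 CPM in Trf2-/- mice. The highest and the lowest of the 6 mice were both mutant. The log2 fold change of 0.02 had a 95% interval of -0.31 to 0.36 (adjusted p = 0.914). Of 10 endothelial markers, all had a positive value and 1 (Eng) was called higher, with a median of 0.17 and a summed level of 64.4 to 67.9 CPM in WT and 72.1 to 88.3 CPM in Trf2-/- mice. Vwf, the highest of them in CPM but not per length, went from 10.8 to 13.3 CPM (adjusted p = 0.258).

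Per length, the 9 genes spanned from 0.925 RPKM for Cldn3 to 118.8 RPKM for Cldn11 in WT testis. After Cldn11 came Jam3 at 36.7 RPKM, Gja1 at 30.1, Pvrl3 at 29.7 and Tjp1 at 28.0 RPKM. The ranges of Gja1 and Pvrl3, and of Pvrl3 and Tjp1, overlapped in WT, and every other pair of neighbours in the order was apart. Pvrl2 at 18.3, Ocln at 7.50 and Cldn5 at 4.15 RPKM followed. In Trf2-/- testis the order was Cldn11 at 135.7, Jam3 at 41.5, Gja1 at 35.4, Tjp1 at 28.3, Pvrl2 at 19.4, Pvrl3 at 18.8, Ocln at 8.39, Cldn5 at 4.19 and Cldn3 at 0.765 RPKM. Pvrl3 thus went from position 4 to position 6, where its range of 16.4 to 20.3 RPKM overlapped that of Pvrl2, 17.5 to 20.7 RPKM. The deposited length of Pvrl3 is 12182 bases, and the union of its exons in the annotation used here is 12747 bases, while the lengths of the other 8 genes were equal in both. Introns and isoforms were not separated in these counts.

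**Figure D3:**
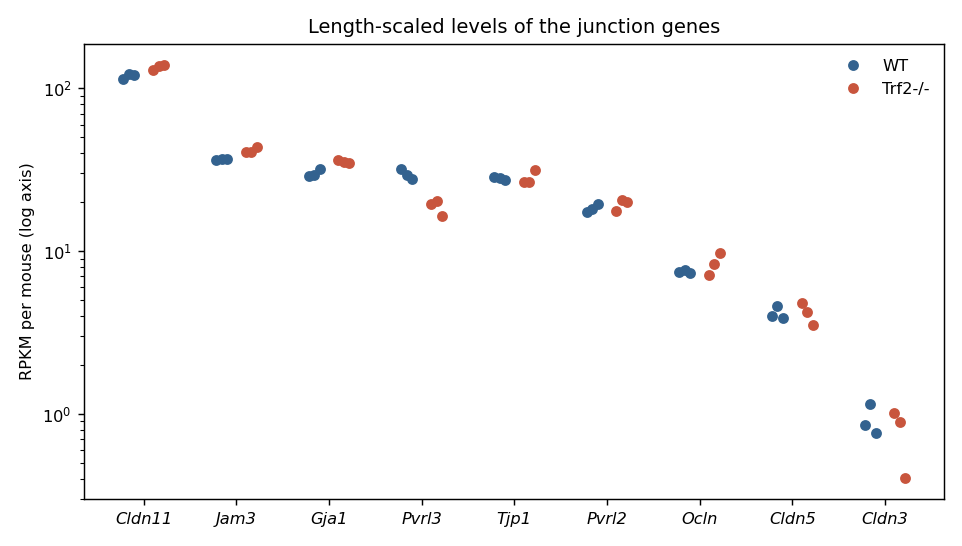
RPKM of the 9 junction genes (vertical log axis) in each of 3 WT (blue) and 3 Trf2-/- mice (red), ordered by the WT mean. Cldn11 is the highest at 118.8 RPKM in WT and Cldn3 the lowest at 0.925 RPKM, and Pvrl3 lies among Gja1 and Tjp1 in WT and beside Pvrl2 in Trf2-/- testis.

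A ratio of genes within a mouse does not depend on the scaling of its library. The RPKM ratio of Pvrl3 to its partner Pvrl2 was 1.84, 1.63 and 1.42 in the WT mice and 1.12, 0.978 and 0.824 in the Trf2-/- mice, with no overlap. The means were 1.63 ± 0.208 and 0.973 ± 0.147 (SD, n = 3; exact permutation test, two-sided p = 0.1, adjusted p = 0.175 over 7 ratios), and 0.1 is the smallest p that 3 mice against 3 allow. The ratio of Pvrl3 to Jam3 was 0.811 ± 0.0584 in WT and 0.454 ± 0.0666 in Trf2-/- testis. That of Pvrl3 to Cldn11 was 0.251 ± 0.0244 and 0.139 ± 0.0186, each also at the smallest exact p of 0.1. Pvrl3 was lower, and Jam3 and Cldn11 higher, in every mutant mouse, so the ratios to Jam3 and Cldn11 had to separate. Among genes other than Pvrl3, the ratio to Cldn11 went from 0.236 ± 0.0121 to 0.208 ± 0.0164 for Tjp1 (exact p = 0.1), from 0.253 to 0.261 for Gja1 (exact p = 0.6), from 0.309 to 0.306 for Jam3 (exact p = 0.7) and from 0.0631 to 0.0617 for Ocln (exact p = 0.7). This exact test cannot place any of these ratios under a p of 0.05 with 3 mice per genotype.

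**Figure D4:**
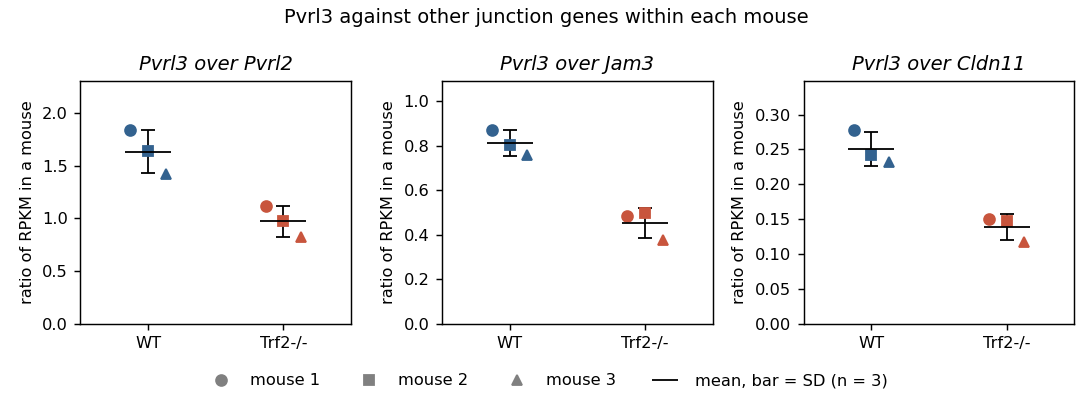
RPKM of Pvrl3 divided by that of Pvrl2, Jam3 or Cldn11 in the same mouse (vertical axes from 0) for 3 WT (blue) and 3 Trf2-/- mice (red), with symbols for the mouse number, lines for the mean and bars for the SD. In each panel the mutant mice lie below the WT mice; the mean ratio to Pvrl2 is 1.63 in WT and 0.973 in Trf2-/- testis.

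For each of the 4 called genes the tested genes with the most similar pattern were sought by Pearson's r of log2 CPM over the 6 mice, which carries the split between genotypes. They were Vps28 (r = 0.9994) and Ppp2r5c (0.9992) for Pvrl3, Oxsr1 (0.9996) and Mical3 (0.9993) for Jam3, Zfp386 (0.9987) and Aff4 (0.9921) for Gja1, and Rbmxl1 (0.9974) and Eef1e1 (0.997) for Cldn11. Of 16915 genes compared, 2151 had r above 0.95 with Pvrl3, 597 with Jam3, 320 with Cldn11 and 212 with Gja1. With so many genes and 6 mice, values of this size are a description only.

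The other junction genes were taken from 8 lists. Of 118 genes listed, 90 were tested, 22 were called higher (11.2% of all tested genes were) and 8 lower (20.2%), and 60 were not called. Their median log2 fold change was 0.15, and 3 changed by at least 2-fold. With the Sertoli marker scaling 0 of the 90 were called higher (0.845% of all tested genes were) and 19 lower (44.2%). Each call of an increase among them was thus made with the TMM scaling and not with that one. Some of these values stayed positive with the Sertoli marker scaling and others turned negative. Over 13 refits the increases named were called in 3 (Cldn25) to 12 of them, and among the decreases Mpp5 was called in 5 and Scrib in 10.

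Tight junction membrane proteins were called higher or not called. Of 7 tested claudins beyond the 3 above, Cldn1, an epithelial claudin, rose from 2.21 to 3.69 CPM (log2 fold change 0.72, adjusted p = 0.0302) and Cldn25 from 28.2 to 33.0 CPM (0.23, adjusted p = 0.0489), with the sign of Cldn25 turning to -0.03 under the Sertoli marker scaling. Without any 1 of the WT mice 0 of the 7 were called, without Trf2-/- mouse 1 or 3 1 was, and with library size alone 5 were. Cldn7, Cldn10, Cldn12, Cldn15 and Cldn23 were not called. Of 6 tested membrane proteins of other families, Jam2, for JAM-B, the binding partner of JAM-C, rose from 49.1 to 60.1 CPM (0.29, adjusted p = 0.0268), and Lsr, for a protein of junctions where 3 cells meet, rose from 83.1 to 98.1 CPM (0.24, adjusted p = 0.0205), the latter at -0.03 with the Sertoli marker scaling. Neither was called without WT mouse 1 or Trf2-/- mouse 1, and 1 was without WT mouse 2.

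The scaffold and polarity list held calls in both directions, with 8 of 21 tested genes higher and 3 lower. Without any 1 of the WT mice 3 were higher, without Trf2-/- mouse 1 4 were, and without WT mouse 1 the lower ones were 1. Pard3 rose by 0.40 on the log2 scale (adjusted p = 0.0218) and Pard6b by 0.37 (0.0118), while Pard6a, a paralog of Pard6b in the same polarity complex, fell by 0.41 (adjusted p = 0.0049). Scrib, the most abundant of the list at 60.6 RPKM, fell by 0.20 (adjusted p = 0.0145) and Mpp5, for PALS1, by 0.15 (0.0486). With the Sertoli marker scaling Pard3 and Pard6b stayed positive without passing the test.

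Connexins beyond Gja1 had no gene called higher and 2 of 10 called lower, with a median log2 fold change of -0.05. The 2 became 0 without WT mouse 2, WT mouse 3 or Trf2-/- mouse 1 and 1 without WT mouse 1. Gjc1, for connexin 45 and the most abundant of them, went from 30.8 to 36.1 CPM and was not called (adjusted p = 0.132).

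In the nectin list Pvr was called higher, from 18.5 to 22.3 CPM (0.27, adjusted p = 0.0466), with a value of -0.0019 under the Sertoli marker scaling, and no gene of the list was called higher without WT mouse 1, 2 or 3 or Trf2-/- mouse 3. The other nectins were low and not called, with Pvrl1 at 2.84 CPM and Pvrl4 at 0.552 CPM in WT. Mllt4, for afadin, which ties nectins to actin, went from 198.1 to 187.6 CPM (adjusted p = 0.246). Cadm1, an adhesion protein of germ cells, went from 180.6 to 200.03 CPM and missed the threshold (adjusted p = 0.0512). Pvrl3 was thus the most abundant of the 4 nectin genes in CPM in both genotypes, and Pvrl1, Pvrl2 and Pvrl4 were not called. Per length Pvrl3 and Pvrl2 overlapped in Trf2-/- testis, at 18.8 and 19.4 RPKM.

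Genes of the ectoplasmic specialization were called higher in 5 of 21 cases and lower in none, with a median of 0.20. The 5 became 1 without WT mouse 2, 2 without WT mouse 1, 3 without Trf2-/- mouse 1 and 15 with library size alone as scaling, and with the Sertoli marker scaling 5 of the 21 were called lower. Itga6 and Itgb1, for the integrin chains of this junction, rose by 0.38 (adjusted p = 0.00143) and 0.22 (0.0120), Lamc3, for a laminin chain, by 0.23 (0.0218) and Actn4, for an actin-bundling protein, by 0.22 (0.0262). With the Sertoli marker scaling Itgb1 was at -0.05, Lamc3 at -0.03 and Actn4 at -0.05, and Itga6 was positive at 0.11 without passing the test.

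Cadherins and catenins had 3 of 10 genes called higher and 2 lower. Ctnnb1, for beta-catenin, was the most abundant at 505.6 CPM in WT and rose by 0.32 (adjusted p = 0.00103), Cdh5, the cadherin of endothelium, rose by 0.45 (0.0115) and Ctnna1 by 0.16 (0.0326), the last at -0.11 with the Sertoli marker scaling. Cdh2, for N-cadherin, which joins Sertoli and germ cells, fell from 207.2 ± 3.80 to 156.3 ± 14.7 CPM (log2 fold change -0.41, adjusted p = 0.0022), and Ctnna3, for an alpha-catenin, fell by 0.44 (0.0046). Both were called lower in all 13 refits, as Pvrl3 was, and neither fell by 2-fold. Desmosome genes had Pkp2 called higher (0.50, adjusted p = 0.0118) and Pkp1, with 68 counts over the 6 mice, called lower (-1.70, adjusted p = 0.0126), while Pkp4, the most abundant, was not called (adjusted p = 0.320).

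**Figure D5:**
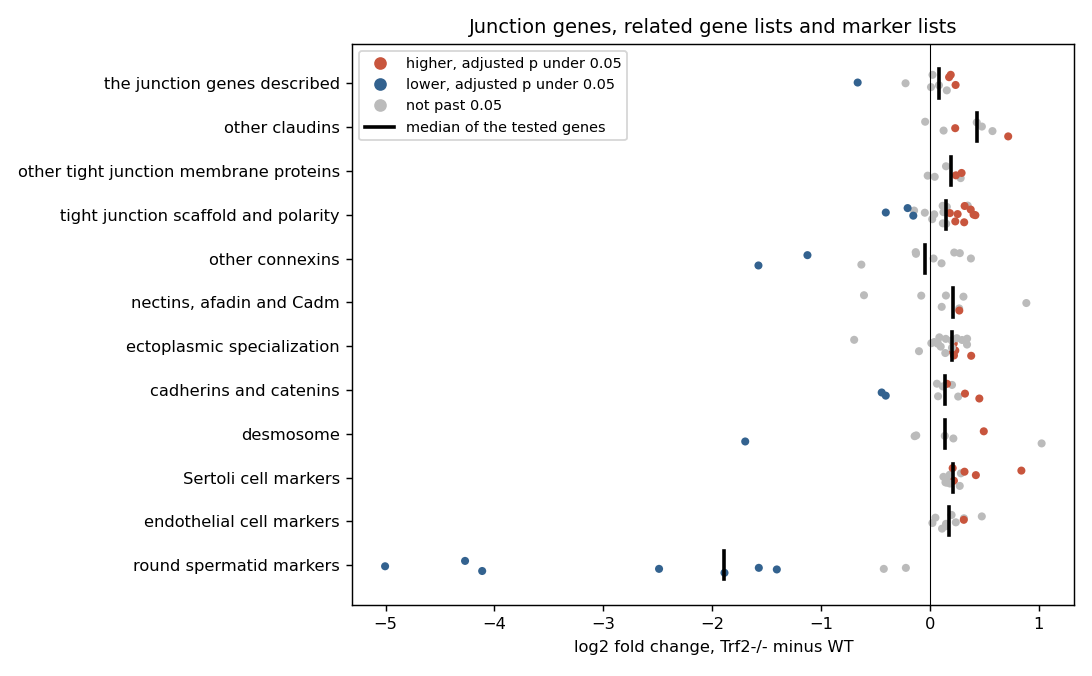
Log2 fold change, Trf2-/- minus WT with TMM scaling (horizontal axis), of every tested gene of the 9 junction genes, the 8 lists of other junction genes and 3 marker lists. Points are genes, red called higher, blue called lower and grey not called. Vertical scatter within a row has no meaning. Black bars are the medians, 0.08 for the 9 junction genes and 0.21 for the Sertoli cell markers. The median is -1.89 for the round spermatid markers, several of them genes of few counts. With the Sertoli marker scaling none of the junction genes shown was called higher.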

How the data were processed

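Total RNA of whole testes of 3 WT and 3 Trf2-/- mice, described in the study as independent biological replicates, was depleted of ribosomal RNA and sequenced from stranded libraries. Single-end reads were aligned by the authors with Tophat to NCBIM37 (mm9), and the deposited table holds raw counts of reads for 26743 genes. The submitters' processing notes name CASAVA 1.8.2, TopHat2 2.0.10, Bowtie2 2.1.0, HTSeq 0.5.4p3 and DESeq2 1.0.19. The annotation release and the strand setting of the counting are not given in the sources used here. A further 12 columns of normalized values per mouse were not used.

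Counts were tested with edgeR 4.0.16 (R 4.3.3; TMM, filterByExpr, glmQLFit, glmQLFTest) on 16924 genes holding 99.9% of the counts, with Benjamini-Hochberg adjustment over these genes and genotype as the only term. The biological coefficient of variation was 0.0838. CPM and RPKM used TMM-scaled library sizes and the deposited gene lengths. The scripts were tested on simulated data. Intervals cover the spread between these mice, 3 per genotype, and depth limits genes of few counts such as Cldn3.

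Junction lists, marker lists, tests and alternatives were chosen with earlier results of these data known. Besides the 9 genes and Tbpl1, the text names from each junction list up to 3 called genes per direction by size of change and the gene of highest mean RPKM, from marker lists the most abundant gene, and for each called gene the 2 genes of most similar pattern. Exceptions, chosen after their values were seen, are the overlapping Gm20512 and Wbscr25, the uncalled claudins and nectins, Mllt4, Tssk1, Tnp1, Prm2, Gapdhs, Eng and Amh. Some genes that the rule picks are not reported here. Of the genes listed, 5 had no row of that name and 1 matched several rows and was left out. Marker lists of other cells gave 1 of 8 Leydig cell, 1 of 6 peritubular, 5 of 9 macrophage and 1 of 7 spermatogonium markers called higher. In these lists 0 were called lower. Of all tested genes 11.2% were called higher and 20.2% lower.

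Alternatives were DESeq2 size factors, library size alone or Sertoli marker scaling as scaling, DESeq2 1.42.0 with its Wald test, 2 other filters, a block for the replicate number, leaving out 1 mouse at a time, and an adjusted p of 0.01 or a fold of 2. Positions are from the NCBIM37 annotation, and promoter windows from RefSeq GRCm38.p6.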

Additional observations from a re-analysis of the deposited data

How the results depend on the processing

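The direction and call of Pvrl3 were kept under all 13 refits, from -0.93 to -0.57 (adjusted p 5.51e-11 to 0.00568). With libraries scaled to the Sertoli markers, values turned to -0.079 for Cldn11, -0.033 for Gja1, -0.095 for Jam3, -0.12 for Ocln, -0.19 for Pvrl2, -0.24 for Cldn5 and -0.26 for Tjp1, and among other junction genes to -0.035 for Cldn25, -0.032 for Lsr, -0.035 for Lamc3, -0.051 for Gjc1, -0.048 for Actn4, -0.051 for Itgb1, -0.0019 for Pvr, -0.12 for Cadm1 and -0.11 for Ctnna1. The median of all tested genes moved with them, from 0.04 to -0.23. That of the Sertoli cell markers moved from 0.21 to -0.06, so values near -0.06 show no fall relative to these markers. With at least 10 counts in every mouse Tjp1 was at -0.0028 and Cldn3 was not tested. With 1 mouse left out the ranges were 0.16 to 0.21 for Cldn11, 0.20 to 0.28 for Gja1, 0.15 to 0.18 for Jam3, 0.051 to 0.25 for Ocln, -0.070 to 0.039 for Tjp1, -0.097 to 0.13 for Cldn5 and -0.47 to 0.033 for Cldn3. The cause was not tested.

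Of the 9 genes, 1 was called lower in the fit as reported, 2 with the Sertoli scaling and 0 at 2-fold. The 3 called higher became 0 with the Sertoli scaling, 0 at an adjusted p of 0.01 and 0 at 2-fold, and 0 to 3 with 1 mouse left out (0 without WT mouse 1, 1 without WT mouse 2). Genes called lower over the whole table numbered 3423, with 7484 under the Sertoli scaling and 727 at 2-fold. Genes called higher numbered 1889, with 4267 for library size alone, 143 for the Sertoli scaling, 481 at 0.01, 103 at 2-fold and 780 to 1903 with 1 mouse left out (787 without WT mouse 1, 780 without WT mouse 2, 1168 without WT mouse 3, 1174 without Trf2-/- mouse 1). The share of calls that were lower was 64.4% with TMM, 38.7% with library size alone and 98.1% with the Sertoli scaling. Of the 90 other junction genes, the 8 called lower became 5 with library size alone, 19 with the Sertoli scaling, 5 with at least 10 counts, 3 at 0.01, 3 at 2-fold and 5 to 9 with 1 mouse left out, and the 22 called higher became 41 with library size alone, 0 with the Sertoli scaling, 4 at 0.01, 0 at 2-fold and 8 to 22 with 1 mouse left out. These 22 stood at 8 without WT mouse 1, 9 without WT mouse 2, 12 without WT mouse 3 and 12 without Trf2-/- mouse 1.

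Mice of the same number did not deviate together (correlations of -0.10, -0.03 and -0.10 over genes), so the numbers were not taken as pairs. With the replicate number as a block, 3094 genes were called lower and 1486 higher, and the 9 genes kept 1 lower and 3 higher.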
